A study of Mus musculus with 16 samples.

Results

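The amino acid deprivation response genes examined here were Atf4, Ddit3, Asns, Trib3, Chac1, Sesn2, Psat1, Phgdh, Slc7a11 and Fgf21. They were taken by symbol, 10 of the 54532 genes listed in the count table. The symbols matched 11 rows, of which a second Ddit3 entry (ENSMUSG00000116429) had no count in any library and was left aside. RNA sequencing of the entire aorta was performed in male C57BL/6J mice, 4 mice in each of 4 groups and 1 library per mouse. A diet of 2% phosphorus with 2.5% protein was fed to both the Sham mice and the group called 5/6 Nx-HPi-Lp, after sham surgery or five-sixths nephrectomy (5/6 Nx). The latter is a 2-step surgery that models CKD, in which poles of the left kidney are ligated and the right kidney is then removed. The 5/6 Nx-HPi-Hp mice received 2% phosphorus with 18% protein, and the 5/6 Nx-LPi-Lp mice received 0.3% phosphorus with 2.5% protein. Surgery was at 12 weeks of age, and the diets followed 2 weeks later for 30 days by the labels and 4 weeks by the methods. Mice of the 5/6 Nx-HPi-Lp group differ from each other group in 1 variable (protein, phosphorus or surgery). No sham-operated group received 18% protein, so a single comparison changes protein alone.

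When a cell lacks an amino acid, uncharged tRNA activates the kinase GCN2, which phosphorylates the translation factor eIF2alpha. Bulk protein synthesis falls, but the mRNA of the transcription factor ATF4 is translated better, so ATF4 can rise as a protein with little change in its mRNA. ATF4 then induces genes for amino acid synthesis and import, together with genes that feed back on the response. The same pathway is entered from endoplasmic reticulum (ER) stress, haem deficiency and viral RNA through other eIF2alpha kinases, and it is called the integrated stress response. ATF4 binds, often with a C/EBP protein, to composite sites known as C/EBP-ATF response elements. The core of these elements can be written TGATGNAA.

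The stretches that hold this core are shown because they mark which of the genes carry the letters of an ATF4 site next to their start. The promoters (250 bases before and 50 after the start of each gene, from RefSeq, build GRCm38.p6) were found for 10 of 10 genes. The core TGATGNAA was searched on both strands, and a match is written in capitals. Sequences are given 5′ to 3′ on the strand of the gene.
Asns, chr6:7693210-7693258, minus strand: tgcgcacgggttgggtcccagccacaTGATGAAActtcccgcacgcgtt
Chac1, chr2:119351023-119351082, plus strand: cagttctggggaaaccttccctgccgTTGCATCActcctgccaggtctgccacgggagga
Slc7a11, chr3:50443627-50443705, minus strand: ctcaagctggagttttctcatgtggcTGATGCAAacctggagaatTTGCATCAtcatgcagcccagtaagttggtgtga
Fgf21, chr7:45615596-45615655, minus strand: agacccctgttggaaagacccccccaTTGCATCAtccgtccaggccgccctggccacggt
Trib3, chr2:152344028-152344057, minus strand: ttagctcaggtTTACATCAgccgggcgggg

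The core was present in 5 of the 10 genes, and in 3.97% of 32851 mouse promoters of the same length. It began 23 bases before the start in Asns, 193 bases before it in Chac1 and 139 bases before it in Fgf21. Slc7a11 held it on both strands, at 66 and 47 bases before the start, and 0.07% of all promoters held 2 or more matches. In Trib3 it lay in the transcribed part, from base 15. With the free position fixed as C (TGATGCAA), the matches in Chac1, Slc7a11 and Fgf21 remained, 3 genes, against 0.895% of all promoters. No match was found in these windows for Atf4, Ddit3, Sesn2, Psat1 (2 listed starts) or Phgdh. A match describes letters and not a bound site, and no match says only that these letters are not in the window. Of the 5 genes with a match, 1 (Slc7a11) was called in the comparison of dietary protein, while Psat1 and Ddit3, called there too, have none in these windows. Fgf21, also among the 5, had too few counts to be tested there. Slc7a11 met the minimum count for testing only in the group where it is high.

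The libraries held 13659525 to 57276915 counts, and those of the 5/6 Nx-HPi-Lp group alone spanned 15013203 to 57276915. Mitochondrially encoded genes took 4.18% to 6.34% of the counts in Sham and 9.5% to 29% after 5/6 Nx. The summed CPM of 7 smooth muscle markers was 21920 to 25990 in Sham and 2265 to 5123 in 5/6 Nx-HPi-Lp, with the other groups between 6673 and 23490. The sum over 6 adipocyte markers was 484.5 to 1231 in Sham, 3139 to 5511 in 5/6 Nx-HPi-Lp, 1087 to 6607 in 5/6 Nx-HPi-Hp and 2538 to 6977 in 5/6 Nx-LPi-Lp. That over 7 macrophage markers was 683.9 to 2291 in 5/6 Nx-HPi-Lp and at most 540.6 in any mouse of the other groups. Mice 1 and 4 of 5/6 Nx-HPi-Lp also carried sympathetic neuron markers at 962.6 and 791 CPM, against 19.1 and 176.1 CPM in mice 2 and 3. None of the smooth muscle, adipocyte or macrophage markers was at 0 in any library. In bulk tissue, fewer cells of a type and less RNA per cell cannot be told apart.

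CPM is the read count scaled by the TMM library size over the 16 libraries and compares mice within a gene, and FPKM compares genes, since it divides by gene length. On the FPKM scale Atf4 was the most abundant of the 10 genes in every group, with group means of 61.0 to 77.3. Ddit3 followed with means of 21.4 to 49.9. Phgdh (6.10 to 16.2), Asns (1.35 to 10.3), Sesn2 (2.87 to 5.72), Trib3 (3.11 to 4.83) and Psat1 (1.09 to 5.29) were at intermediate FPKM, and Chac1 was lower, at 0.915 to 2.25. Fgf21 and Slc7a11 had the lowest FPKM, with group means of at most 0.709 and 0.240. Fgf21 had at most 31 counts in any library. Slc7a11, the longest of the 10 genes at 13922 bases, had up to 400 counts in a 5/6 Nx-HPi-Lp library and at most 11 in any library of the other groups.

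**Figure D1:**
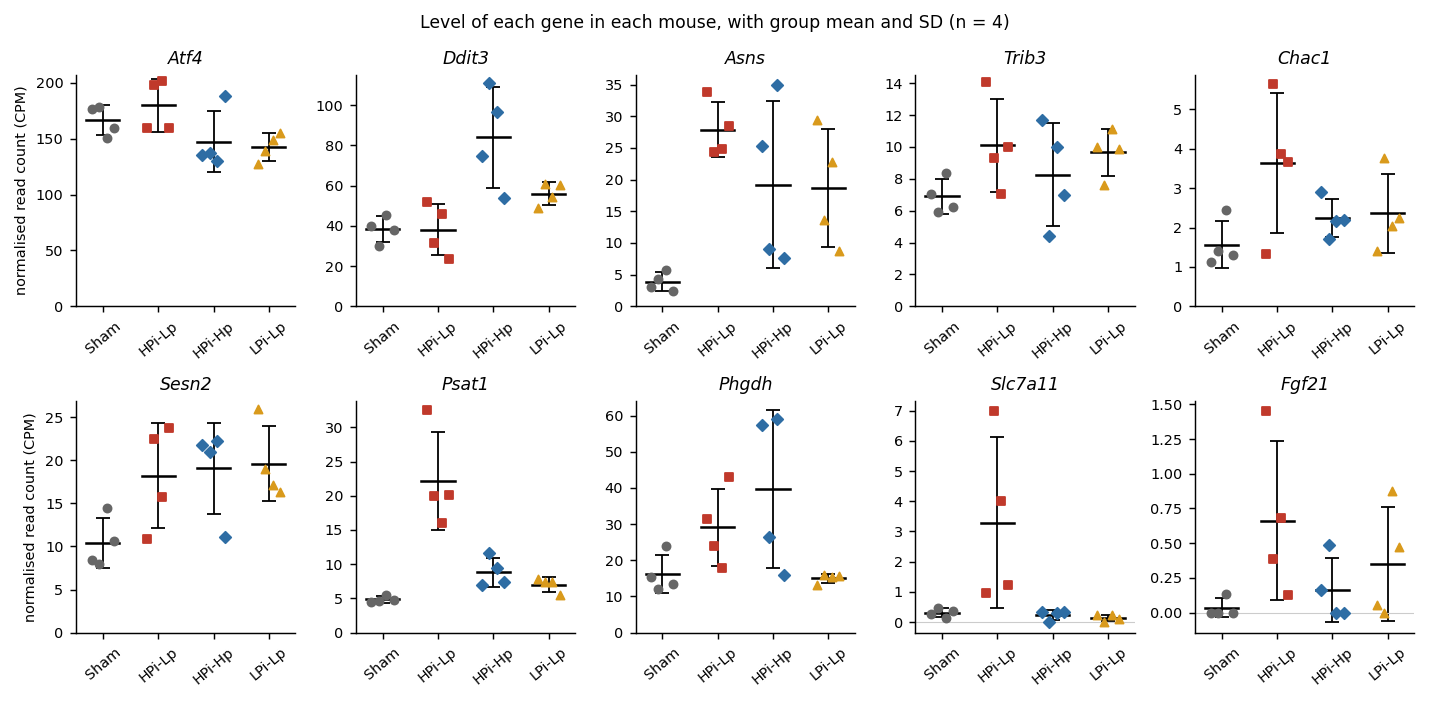
Normalised read count (CPM, y axis from 0) of each of the 10 genes in each mouse of the 4 groups, with points for mice, horizontal bars for group means and error bars for SD (n = 4). Psat1 and Slc7a11 stand above every other mouse within 5/6 Nx-HPi-Lp, the 3 highest Ddit3 values lie within 5/6 Nx-HPi-Hp, and Asns is at most 5.77 CPM in Sham.

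The first question was which of these genes differed with dietary protein, 2.5% against 18%, at 2% phosphorus after 5/6 Nx. Psat1 and Slc7a11 were upregulated and Ddit3 was downregulated on 2.5% protein (5/6 Nx-HPi-Lp) relative to 18% protein (5/6 Nx-HPi-Hp). Atf4, Asns, Trib3, Chac1, Sesn2 and Phgdh did not pass the test, and Fgf21 had too few counts to be tested. A gene was called when its Benjamini-Hochberg adjusted p by edgeR's quasi-likelihood test was at most 0.05 and its log2 fold change was at least 1 in size. Of the 9 genes tested, 2 were called higher, against 5.01% of the 16198 genes tested, and 1 was called lower, against 3.11%. At the adjusted p alone the count was also 3, against 13.0% of all genes. The 2 groups did not overlap for 3 of the 9 genes, against 20.4% of all genes. Slc7a11 met the minimum count for testing only in the 2.5% protein libraries, 4 of 4 against 0 of 4, so it could enter this test only by being high there. Among the 8 genes tested in all 6 comparisons, 1 was called higher and 1 lower, with a median log2 fold change of 0.29, against 0.01 over all genes. All fold changes are given as the first group over the second.

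Psat1 (chr19:15904678-15947337, minus strand, mm10) encodes phosphoserine aminotransferase, the middle enzyme of serine synthesis from glucose. Its normalised read counts were 32.5, 20.02, 16.1 and 20.1 CPM in the mice on 2.5% protein, and 6.99, 11.6, 9.37 and 7.33 CPM in the mice on 18% protein. The lowest mouse on 2.5% protein was above the highest on 18% protein. The log2 fold change was 1.33 ± 0.27 (SE), with an adjusted p of 0.0149 (n = 4 mice per group, edgeR). Psat1 was called after leaving out any single library, but not without mice 1 and 4 on 2.5% protein together, when its log2 fold change was 1.03 with an adjusted p of 0.0684, nor with limma on log2(FPKM + 1), where it was 0.998, just under the fold threshold. It also lost its call with limma on all genes and with the replicate number fitted as a block. Mouse 1 on 2.5% protein, highest for Psat1, also had the highest sympathetic neuron (962.6 CPM) and Schwann cell (531.1 CPM) markers of its group, and mouse 4, at 20.1 CPM of Psat1, was next in both (791 and 141 CPM). Mouse 2, at 20.02 CPM of Psat1, had the lowest level of its group in both (19.1 and 56.4 CPM). Macrophage markers separated the groups as Psat1 did, at 683.9 to 2291 CPM on 2.5% protein and 274.7 to 540.6 CPM on 18% protein. Fibroblast markers did so too (4567 to 22680 and 1497 to 4162 CPM). Mouse 1 was the lowest of its group for macrophage and fibroblast markers. The part of these markers in the Psat1 result was not tested.

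Phgdh encodes phosphoglycerate dehydrogenase, which catalyses the step before Psat1 in the same pathway, and it was not called. Its values were 31.3, 24.01, 18.0 and 43.0 CPM in the mice on 2.5% protein, and 57.4, 26.5, 59.2 and 15.97 CPM in the mice on 18% protein. The log2 fold change was -0.45 ± 0.42 (SE), with an adjusted p of 0.489 (edgeR, n = 4). The mice on 18% protein fell apart for Phgdh, with mice 1 and 3 above every mouse on 2.5% protein and mouse 4 below every one of them. Their adipocyte markers, at 4896, 2512, 6607 and 1087 CPM, ranked the 4 mice in the same order as Phgdh did, which they did in none of the other 3 groups. Brown adipocyte markers, at 2141, 1069, 2674 and 764 CPM, gave that order on 18% protein too. Smooth muscle markers, at 10210, 11200, 6673 and 23490 CPM, gave its exact reverse. The part of these markers in the Phgdh values was not tested. With the adipocyte markers as a covariate the log2 fold change of Phgdh was -0.56 and its adjusted p 0.128. The count table lists 2 Phgdh pseudogenes, with 4 counts and 0 counts over the 16 libraries against 8404 for Phgdh, and how reads that match several copies were assigned is not given in the sources used here.

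Asns (chr6:7675169-7693254, minus strand, mm10) encodes asparagine synthetase, an enzyme widely used as a readout of amino acid shortage. It was 33.9, 24.4, 24.8 and 28.4 CPM in the mice on 2.5% protein, and 25.3, 8.98, 34.9 and 7.55 CPM in the mice on 18% protein. The groups overlapped, and the log2 fold change of 0.54 ± 0.44 (SE) had an adjusted p of 0.427 (edgeR, n = 4). The mice on 18% protein split as they did for Phgdh, with mice 1 and 3 high and mice 2 and 4 low. Their order was again that of their adipocyte and brown adipocyte markers, and the reverse of that of their smooth muscle markers. With the adipocyte covariate the log2 fold change of Asns was 0.53 and its adjusted p 0.176.

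Slc7a11 (chr3:49892526-50443614, minus strand, mm10) encodes the xCT subunit of the cystine-glutamate exchanger, which brings in cystine for glutathione synthesis. It was counted 15, 400, 182 and 19 times in the libraries on 2.5% protein, and 6, 0, 4 and 6 times in the libraries on 18% protein. As CPM these were 0.946, 6.98, 4.02 and 1.23 on 2.5% protein against 0.323, 0, 0.300 and 0.328 on 18% protein, so the groups did not overlap. The fitted log2 fold change was 3.75 ± 0.89 (SE), with an adjusted p of 0.0254 (edgeR, n = 4), and its size depends on the prior count because the 18% protein libraries are near 0. With no count filter the adjusted p was 0.0108. Mice 2 and 3 were above mice 1 and 4, and the macrophage markers ranked the 4 mice on 2.5% protein in the same order, at 683.9, 2291, 1443 and 1224 CPM. The fibroblast markers, which ran from 4567 to 22680 CPM in that group, gave the same order again. In the protein comparison 7 of 7 macrophage markers were called higher, and their part in the Slc7a11 result was not tested. Mice 2 and 3 also had the deepest libraries on 2.5% protein, at 57276915 and 46499243 counts. Mice 1 and 4 had 15665005 and 15013203 counts. The part of depth in this split between mice was not tested. The Slc7a11 call was lost when mouse 2 (adjusted p = 0.0661) or 3 (0.0581) on 2.5% protein or mouse 1 (0.056), 2 (0.0547) or 3 (0.057) on 18% protein was left out.

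Ddit3 encodes CHOP, a transcription factor induced downstream of ATF4 and linked to cell death under prolonged ER stress, and it was the only one of the 10 called lower. It was 51.8, 31.5, 45.7 and 23.7 CPM in the mice on 2.5% protein, and 74.6, 110.9, 96.7 and 53.9 CPM in the mice on 18% protein. Every mouse on 18% protein was above every mouse on 2.5% protein, although the nearest mice were 51.8 and 53.9 CPM. The share of mitochondrially encoded counts was 16.3%, 29%, 25% and 9.5% in the 4 mice on 18% protein, in the order of their Ddit3, and 27.1%, 19.3%, 25% and 22.4% on 2.5% protein, where mice 1 and 3 were highest for both. Its part in the Ddit3 result was not tested. Ddit3 had a log2 fold change of -1.14 ± 0.30 (SE), with an adjusted p of 0.0342 (edgeR, n = 4), and of 0.0353 when mitochondrially encoded genes were left out of the fit. Leaving them out changes the library totals and does not adjust for their share in each mouse. The call was lost when mouse 2 (adjusted p = 0.0821), 3 (0.0551) or 4 (0.0931) on 2.5% protein or mouse 1 (0.0544), 2 (0.0904) or 3 (0.0711) on 18% protein was left out. Ddit3 (chr10:127290774-127296288, plus strand, mm10) shares its last 68 bases with Mars on the other strand, and as the use of strand in counting is not given in the sources used here, reads there cannot be told apart. The second Ddit3 entry lies wholly inside the first, and how reads over both were assigned is not given either.

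Atf4 itself was not called. Its values were 159.9, 198.2, 201.9 and 159.1 CPM in the mice on 2.5% protein, and 135.0, 137.2, 129.7 and 187.9 CPM in the mice on 18% protein. Mouse 4 on 18% protein lay within the range of the 2.5% protein mice and the other 3 below it. The log2 fold change was 0.29 ± 0.17 (SE), with an adjusted p of 0.274 (edgeR, n = 4).

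Trib3, Chac1 and Sesn2 did not pass the test either. Trib3, a pseudokinase that restrains ATF4 and CHOP, had a log2 fold change of 0.29 ± 0.33 (SE). Chac1, which breaks down glutathione, had one of 0.70 ± 0.45 (SE), and Sesn2, a leucine sensor that restrains mTORC1, had one of -0.06 ± 0.30 (SE). The groups overlapped for all 3 genes. Chac1 was 1.32, 5.65, 3.86 and 3.68 CPM in the mice on 2.5% protein, in the order of both their macrophage and their fibroblast markers. It was 2.90, 1.71, 2.17 and 2.19 CPM in the mice on 18% protein. Mice 2 and 3 on 2.5% protein, the highest for Chac1, had the deepest libraries of that group.

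Fgf21 encodes a hormone that liver and fat release on protein restriction, and it had 113 counts in the 16 libraries together. It was counted 23, 22, 31 and 2 times in the 5/6 Nx-HPi-Lp libraries and 3, 6, 0 and 0 times in the 5/6 Nx-HPi-Hp libraries. The 5/6 Nx-LPi-Lp libraries gave 1, 0, 12 and 10 counts, and the Sham libraries 0, 0, 3 and 0. Fgf21 was thus read in all 5/6 Nx-HPi-Lp mice and in 1 Sham mouse, and no group other than 5/6 Nx-HPi-Lp had counts in every mouse. The 5/6 Nx-HPi-Lp libraries include the deepest of the series, so the scaled values were 1.45, 0.384, 0.685 and 0.129 CPM there, and at most 0.490 CPM in the 5/6 Nx-HPi-Hp mice, 0.874 CPM in 5/6 Nx-LPi-Lp and 0.135 CPM in Sham. Fitted with no count filter, Fgf21 had an adjusted p of 0.368 for protein, 0.638 for phosphorus and 0.0385 against Sham (edgeR, n = 4). A difference between the 5/6 Nx groups was not detectable at this depth.

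**Figure D2:**
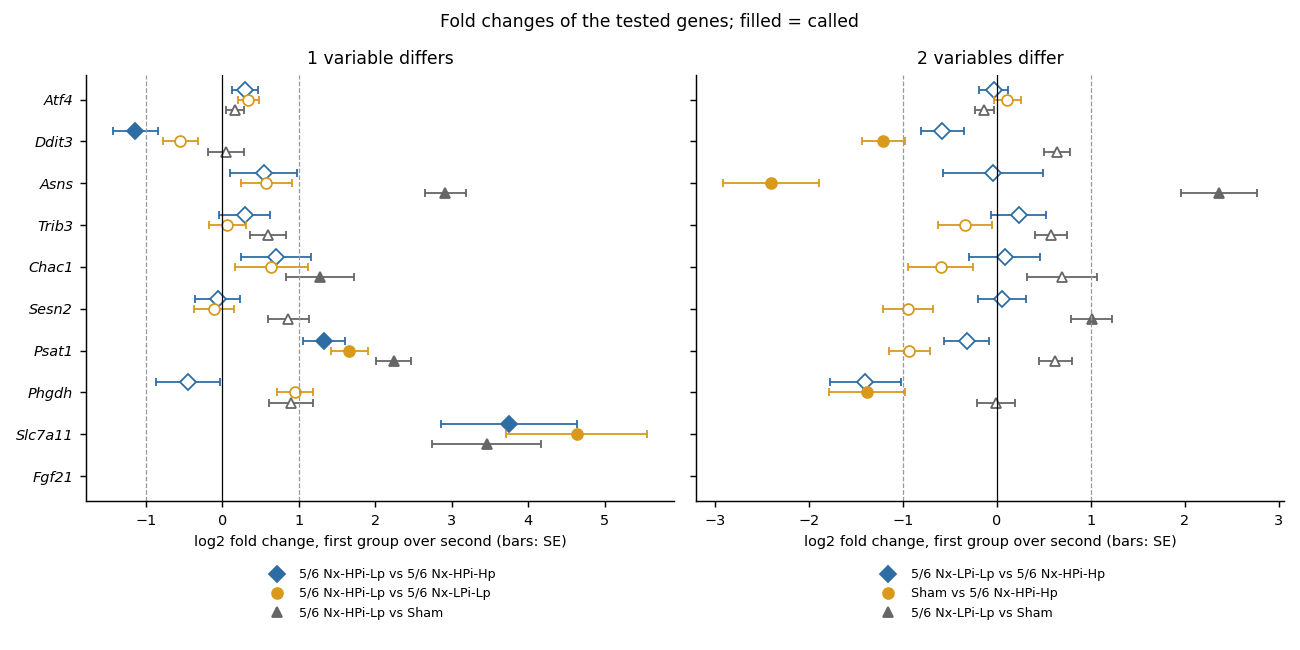
Log2 fold change (x axis, first group over second, bars for SE) of the tested genes in the 3 comparisons in which 1 variable differs and in the other 3, with filled symbols for called genes and dashed lines at a log2 fold change of 1 in either direction. Psat1 and Slc7a11 are called in each comparison of 5/6 Nx-HPi-Lp, and Asns is called in each comparison with Sham. Fgf21 was not tested and has no symbol.

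The second comparison asked what differed with dietary phosphorus, 2% against 0.3%, at 2.5% protein after 5/6 Nx. Psat1 and Slc7a11 were upregulated on 2% phosphorus here as well, and none of the genes was called lower, against 3.98% of all genes. The 2 called higher stand beside 7.90% of all 16253 genes tested. At the adjusted p alone Phgdh joined them, 3 of 9 genes against 20.1% of all genes. The 2 groups did not overlap for 4 of the 9 genes, against 24.7% of all genes. As before, Slc7a11 met the minimum count only in the libraries on 2% phosphorus. Of the 8 genes tested in all comparisons 1 was called, and their median log2 fold change was 0.46, against -0.02 over all genes. The libraries on 2% phosphorus are the same as in the protein comparison, so the 2 sets of calls are not independent.

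Psat1 was 7.80, 7.34, 7.43 and 5.47 CPM in the mice on 0.3% phosphorus, all below the lowest mouse on 2% phosphorus at 16.1 CPM. Its log2 fold change was 1.66 ± 0.24 (SE), with an adjusted p of 0.00311 (edgeR, n = 4). Slc7a11 was counted 4, 0, 3 and 2 times in the libraries on 0.3% phosphorus, against 15 to 400 times in the libraries on 2% phosphorus. The fitted log2 fold change of 4.63 ± 0.93 (SE) had an adjusted p of 0.0103 (edgeR, n = 4) and depends on the prior count. With no count filter the adjusted p was 0.00388, and with at least 10 counts in every library Slc7a11 was not tested. Both genes remained called after leaving out any single library.

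Phgdh was narrowly spread in the mice on 0.3% phosphorus, at 13.2, 15.8, 15.5 and 15.5 CPM, and each was below the lowest mouse on 2% phosphorus at 18.0 CPM. Its log2 fold change of 0.95 ± 0.24 (SE) had an adjusted p of 0.0239 (edgeR, n = 4) and missed the fold threshold. It passed both thresholds without the 2% phosphorus mouse 2 (log2 fold change 1.02, adjusted p = 0.0325) or 3 (1.12, adjusted p = 0.0104). Its adjusted p rose above 0.05 without mouse 4 on 2% phosphorus (0.0584) or without any 1 mouse on 0.3% phosphorus (0.0507 to 0.0648).

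Atf4 was 127.4, 138.6, 148.5 and 155.5 CPM in the mice on 0.3% phosphorus, all just below the mice on 2% phosphorus, but its log2 fold change of 0.34 ± 0.14 (SE) had an adjusted p of 0.11 (edgeR, n = 4). Ddit3, at 48.8, 60.8, 54.1 and 60.3 CPM on 0.3% phosphorus, had a log2 fold change of -0.55 ± 0.23 (SE) and an adjusted p of 0.117. Asns ranged from 8.66 to 29.5 CPM in the mice on 0.3% phosphorus and overlapped the mice on 2% phosphorus, with a log2 fold change of 0.58 ± 0.33 (SE) and an adjusted p of 0.246. In the mice on 0.3% phosphorus the order of Asns was again that of the adipocyte markers. Trib3, Chac1 and Sesn2 had log2 fold changes of 0.06, 0.64 and -0.10, and their groups overlapped.

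The third comparison set 5/6 Nx-HPi-Lp against Sham, both on the same diet. Asns, Psat1, Slc7a11 and Chac1 were upregulated after 5/6 Nx, and none of the genes was called lower, against 7.18% of all genes. The 4 called higher, of 9 tested, stand beside 15.0% of all 16513 genes tested, and the 6 at the adjusted p alone beside 42.9%. The 2 groups did not overlap for 3 of the 9 genes, against 43% of all genes. Slc7a11 met the minimum count in 4 libraries after 5/6 Nx and 1 Sham library, so it entered the test through the group where it is high. Over the 8 genes tested in all comparisons 3 were called, with a median log2 fold change of 0.88, against 0.00 over all genes.

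Asns had the lowest adjusted p of the 10 genes here. It was 3.01, 4.28, 5.77 and 2.33 CPM in the Sham mice, against 24.4 to 33.9 CPM after 5/6 Nx. The log2 fold change was 2.92 ± 0.27 (SE), a 7.54-fold difference, with an adjusted p of 5.46e-05 (edgeR, n = 4). Psat1 was 4.51, 4.55, 5.55 and 4.78 CPM in the Sham mice, and its log2 fold change was 2.25 ± 0.23 (SE), with an adjusted p of 8.34e-05. Slc7a11 was counted 7, 11, 3 and 9 times in the Sham libraries, and its fitted log2 fold change was 3.46 ± 0.71 (SE), with an adjusted p of 0.00367 and, with no count filter, of 0.00233. These 3 calls held without any single library. The adipocyte markers, 5 of 6 called higher in this comparison, separated the same groups without overlap. With their summed level as a covariate 0 genes of the genome were called by edgeR, with 1580 at an unadjusted p under 0.05, and the log2 fold changes of Asns, Psat1 and Slc7a11 were 2.12, 2.48 and 5.29, with adjusted p of 0.419, 0.331 and 0.575. As the markers do not overlap between these groups, this fit cannot tell them apart from surgery. The loss of calls therefore says nothing of either.

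Chac1 was 1.12, 1.399, 2.44 and 1.30 CPM in the Sham mice and overlapped those after 5/6 Nx, where mouse 1 was at 1.32 CPM. The log2 fold change was 1.28 ± 0.45 (SE), with an adjusted p of 0.0419 (edgeR, n = 4). The Chac1 call was lost without Sham mouse 1 (adjusted p = 0.119), 2 (0.11) or 4 (0.108), without 5/6 Nx mouse 2 (0.104), 3 (0.0735) or 4 (0.0744), and when the libraries were thinned to the lowest total (0.0825). With the adipocyte covariate, which cannot be told apart from surgery here, its log2 fold change was -0.46.

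Sesn2 and Phgdh passed the adjusted p but not the fold threshold. Sesn2 was 8.48, 7.998, 14.5 and 10.6 CPM in the Sham mice against 10.8, 22.5, 15.7 and 23.8 CPM after 5/6 Nx, a log2 fold change of 0.86 ± 0.27 (SE) with an adjusted p of 0.0278 (edgeR). It was called without Sham mouse 3 (1.04) or 5/6 Nx mouse 1 (1.05). Phgdh, at 15.4, 12.2, 23.8 and 13.3 CPM in the Sham mice, had a log2 fold change of 0.90 ± 0.29 (SE) with an adjusted p of 0.0306, and was called without Sham mouse 3 (1.12) or 5/6 Nx mouse 3 (1.08). With the adipocyte covariate, under the same limit, the log2 fold changes were -0.66 for Sesn2 and -0.21 for Phgdh.

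Atf4, Ddit3 and Trib3 were not called. Atf4 was 176.8, 178.2, 150.9 and 159.7 CPM in the Sham mice, within or near the range after 5/6 Nx, and its log2 fold change was 0.16 ± 0.12 (SE). Ddit3 was 39.8, 29.8, 45.6 and 37.9 CPM in the Sham mice, with a log2 fold change of 0.05 ± 0.24 (SE). Trib3 was 7.01, 5.94, 8.39 and 6.25 CPM in the Sham mice against 14.1, 9.28, 7.04 and 9.998 CPM after 5/6 Nx, with a log2 fold change of 0.60 ± 0.24 (SE) and an adjusted p of 0.0657 (edgeR).

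In the other 3 comparisons 2 variables differ at once, and their groups are shared with the comparisons already given. Slc7a11 and Fgf21 had too few counts to be tested in these 3 comparisons. Between 5/6 Nx-LPi-Lp and 5/6 Nx-HPi-Hp, which differ in both protein and phosphorus, 0 of 8 genes and 0% of the 15850 genes tested were called by edgeR, with 1420 genes at an unadjusted p under 0.05 and 79 called by DESeq2. Phgdh had the largest difference of the 8, 13.2 to 15.8 CPM against 15.97 to 59.2 CPM, with no overlap. It was the 1 gene of the 8 without overlap, beside 5.15% of all genes. Its log2 fold change was -1.40 ± 0.38 (SE), with an adjusted p of 0.492 by edgeR and of 0.0369 by DESeq2, and the call thus depends on the tool. Ddit3 had a log2 fold change of -0.58 ± 0.23 (SE) and an adjusted p of 0.535, and Asns, Atf4, Chac1 and Sesn2 lay between -0.04 and 0.08. Psat1 had one of -0.32 ± 0.24 (SE) and Trib3 one of 0.23 ± 0.29 (SE), and both overlapped.

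Sham and 5/6 Nx-HPi-Hp differ in protein and surgery. Ddit3, Asns and Phgdh were lower in the Sham mice, 3 of 8 genes against 9.41% of the 15882 genes tested, and 5 of 8 genes passed the adjusted p alone, against 31.4%. The log2 fold changes were -1.21 ± 0.23 (SE, adjusted p = 0.00977) for Ddit3, -2.41 ± 0.51 (SE, adjusted p = 0.0115) for Asns and -1.38 ± 0.41 (SE, adjusted p = 0.0298) for Phgdh (edgeR, n = 4). With total-count scaling Ddit3 was at -0.97, under the fold threshold. Phgdh lost its call without Sham mouse 1 (adjusted p = 0.0727), 2 (0.0861) or 4 (0.0734) or without 5/6 Nx-HPi-Hp mouse 1 (0.0769) or 3 (0.0755). Sesn2 (log2 fold change -0.95) was called without Sham mouse 3 (-1.15) or 5/6 Nx-HPi-Hp mouse 4 (-1.15), and Psat1 (-0.93) without Sham mouse 3 (-1.002), 5/6 Nx-HPi-Hp mouse 1 (-1.02) or mouse 4 (-1.03). Atf4 (0.11 ± 0.14, SE), Trib3 (-0.34 ± 0.29) and Chac1 (-0.60 ± 0.35) overlapped and did not pass the test. All 6 adipocyte markers were lower in the Sham mice as well. With them as a covariate, Ddit3 (-0.76, adjusted p = 0.276), Asns (-0.50, adjusted p = 0.533) and Phgdh (0.22) were not called. Only mouse 4 of 5/6 Nx-HPi-Hp, at 1087 CPM of these markers, lay within the Sham range of 484.5 to 1231 CPM. The fit therefore hardly separates the markers from protein and surgery.

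Between 5/6 Nx-LPi-Lp and Sham, both on 2.5% protein, Asns and Sesn2 were called higher, 2 of 8 genes against 8.79% of the 16071 genes tested, and 5 of 8 passed the adjusted p alone, against 31.8%. Asns had a log2 fold change of 2.37 ± 0.41 (SE, adjusted p = 0.00375, edgeR, n = 4). With the adipocyte markers as a covariate, 6 of 6 of which were higher after 5/6 Nx, it was 0.24 with an adjusted p of 0.929. Those markers did not overlap between the groups, at 484.5 to 1231 CPM in Sham and 2538 to 6977 CPM in 5/6 Nx-LPi-Lp. This fit therefore cannot tell the markers apart from surgery and phosphorus. Sesn2 stood at the fold threshold with a log2 fold change of 1.01 ± 0.22 (SE, adjusted p = 0.00855), and fell under it without Sham mouse 1 (0.92) or 2 (0.90) or 5/6 Nx-LPi-Lp mouse 1 (0.84). Ddit3 was higher by less than the fold threshold, with a log2 fold change of 0.64 ± 0.14 (SE, adjusted p = 0.00843) and no overlap. The 2 groups did not overlap for 3 of the 8 genes, against 35.6% of all genes. Trib3 and Psat1, at 0.58 and 0.62, also passed the adjusted p alone. Atf4 (-0.13 ± 0.10, SE), Chac1 (0.69 ± 0.37) and Phgdh (-0.01 ± 0.20) did not.

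Set in order of their means, the 4 groups ranked differently from gene to gene. Psat1 ran from 4.85 ± 0.48 CPM (SD, n = 4) in Sham through 7.01 ± 1.04 in 5/6 Nx-LPi-Lp and 8.82 ± 2.13 in 5/6 Nx-HPi-Hp to 22.1 ± 7.13 in 5/6 Nx-HPi-Lp, and its middle neighbours did not differ beyond their spread. Asns ran from 3.85 ± 1.52 CPM in Sham to 18.7 ± 9.28 in 5/6 Nx-LPi-Lp, 19.2 ± 13.2 in 5/6 Nx-HPi-Hp and 27.9 ± 4.38 in 5/6 Nx-HPi-Lp, and the last 3 overlapped one another. Ddit3 had the reverse top, with 38.2 ± 12.9 CPM in 5/6 Nx-HPi-Lp and 38.3 ± 6.54 in Sham at the bottom and 84.0 ± 25.0 in 5/6 Nx-HPi-Hp at the top. Phgdh was at 15.0 ± 1.21 CPM in 5/6 Nx-LPi-Lp and 16.2 ± 5.26 in Sham, then 29.1 ± 10.7 in 5/6 Nx-HPi-Lp and 39.7 ± 21.8 in 5/6 Nx-HPi-Hp.

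**Figure D3:**
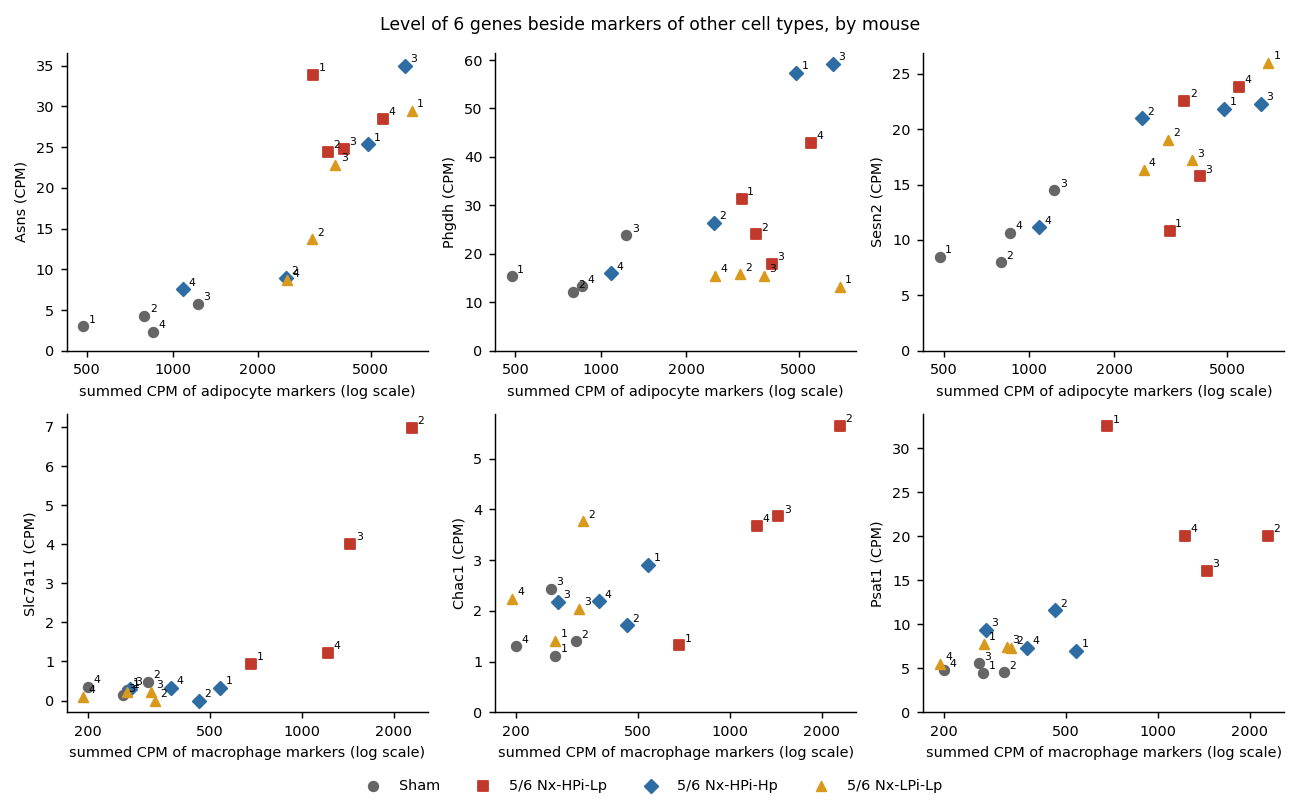
Normalised read count (CPM, y axis) of 6 genes against the summed CPM of adipocyte or macrophage markers (x axis, log scale), 1 point per mouse with its replicate number. Asns follows the order of the adipocyte markers within 5/6 Nx-HPi-Hp and within 5/6 Nx-LPi-Lp, and Slc7a11 exceeds 0.481 CPM only in the 4 mice with the highest macrophage markers, all of them 5/6 Nx-HPi-Lp.

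In the scatter of levels against cell type markers, Asns within 5/6 Nx-HPi-Hp and within 5/6 Nx-LPi-Lp, Phgdh and Sesn2 within 5/6 Nx-HPi-Hp, and Slc7a11 and Chac1 within 5/6 Nx-HPi-Lp followed the order of the markers mouse by mouse. Of 40 orders compared, for 10 pairs of a gene and a marker list in the 4 groups, 8 were the same, and 1 of these was Fgf21 in Sham, where 3 mice are tied at 0. Slc7a11 in 5/6 Nx-HPi-Lp accounts for 2 of the 8, with macrophages and with fibroblasts. Asns did not follow the adipocyte markers in Sham or 5/6 Nx-HPi-Lp, and Psat1 did not follow the macrophage or the sympathetic neuron markers exactly in any group. These pairs were chosen after the values were seen. Within 5/6 Nx-HPi-Hp the brown adipocyte markers gave the order of the adipocyte markers, and the smooth muscle markers gave its reverse. Within 5/6 Nx-HPi-Lp the fibroblast markers gave the order of the macrophage markers. In the protein comparison none of 6 adipocyte markers was called, so their level as a covariate could take little from a difference between these groups. With it Psat1 (1.34, adjusted p = 0.0179), Slc7a11 (3.76, adjusted p = 0.0315) and Ddit3 (-1.16, adjusted p = 0.0329) were called by edgeR. Macrophage (7 of 7 higher), fibroblast (5 of 6 higher) and smooth muscle markers (6 of 7 lower) did differ there and were not used as a covariate.

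The other genes of the pathway were read from lists of related function. In the protein comparison, 0 of 13 genes for the eIF2alpha kinases, eIF2 and eIF2B and 0 of 7 further stress response transcription factors were called, with median log2 fold changes of 0.06 and 0.12. As 5.01% of all genes were called higher and 3.11% lower, counts of 0 or 1 in lists of 4 to 20 genes are near the background. None of 20 cytosolic aminoacyl-tRNA synthetases was called, although many are ATF4 targets, and their median was 0.03. None of 18 ER stress genes of the ATF6 and XBP1 arms was called, with a median of 0.44, and none of 12 genes for amino acid sensing upstream of mTORC1, with a median of -0.12. None of the 4 FGF21 receptor genes was called, with a median of -0.27.

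Single genes of 4 lists were called. Among 10 other ATF4 targets (median -0.15), Ddit4, which encodes the mTORC1 inhibitor REDD1, was higher. It was 62.5, 80.1, 60.3 and 101 CPM on 2.5% protein against 19.5, 20.7, 38.5 and 26.03 CPM on 18% protein, with a log2 fold change of 1.54 ± 0.26 (SE) and an adjusted p of 0.00722 (edgeR, n = 4). It was called in the phosphorus comparison (1.66) and against Sham (1.22) too, the latter with overlap and lost without Sham mouse 1 (adjusted p = 0.113), 3 (0.0818) or 4 (0.104) or 5/6 Nx-HPi-Lp mouse 2 (0.0669), 3 (0.0547) or 4 (0.108).

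Of 8 further serine, glycine and one-carbon genes (median 0.01), the mitochondrial folate enzyme Mthfd2 was called higher, with a log2 fold change of 1.39 ± 0.40 (SE) and an adjusted p of 0.0455 (edgeR). Its groups overlapped, and the call was lost without any 1 of 7 of the 8 libraries, all but 5/6 Nx-HPi-Hp mouse 4, with adjusted p up to 0.124. Of 11 amino acid transporters (median 0.53), the leucine transporter gene Slc7a5 was higher and the glycine transporter gene Slc6a9 lower. Slc7a5 had a log2 fold change of 1.02 ± 0.27 (SE, adjusted p = 0.0347) and lost its call without 5/6 Nx-HPi-Lp mouse 1, 2 or 4 or 5/6 Nx-HPi-Hp mouse 1, 2 or 3, with adjusted p up to 0.109. Slc6a9 had one of -1.29 ± 0.26 (SE, adjusted p = 0.0149), was lower against each of the other groups, and lost its call here without 5/6 Nx-HPi-Lp mouse 4 (0.0539) and in the phosphorus comparison without that mouse (0.062) or 5/6 Nx-LPi-Lp mouse 3 (0.0536).

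Slc7a11 is also a target of NRF2, the transcription factor of the oxidative stress response, so NRF2 targets were read beside it. Of 10 further NRF2 targets (median 0.68), Hmox1, encoding haem oxygenase 1, and Gsr, encoding glutathione reductase and named after its values were seen, were higher in the protein comparison. These 2 stand beside 5.01% of all genes called higher, and 0 of the 10 were called lower. At the adjusted p alone 6 of the 10 passed, against 13.0% of all genes. Hmox1 was 39.0, 155.4, 222.5 and 55.9 CPM on 2.5% protein and 13.7, 12.1, 14.7 and 7.71 CPM on 18% protein. Its log2 fold change was 3.30 ± 0.53 (SE), with an adjusted p of 0.00617 (edgeR, n = 4), and it was called in the phosphorus comparison (3.51) and against Sham (3.94) as well. Mice 2 and 3 were the high ones for Hmox1 as for Slc7a11. They were also the highest of 5/6 Nx-HPi-Lp in macrophage markers (2291 and 1443 CPM) and fibroblast markers (22680 and 9676 CPM). Mice 2 and 3 had the deepest libraries of that group as well, at 57276915 and 46499243 counts. The part of these cell types in the Hmox1 result, and of depth in its split between mice, was not tested.

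**Figure D4:**
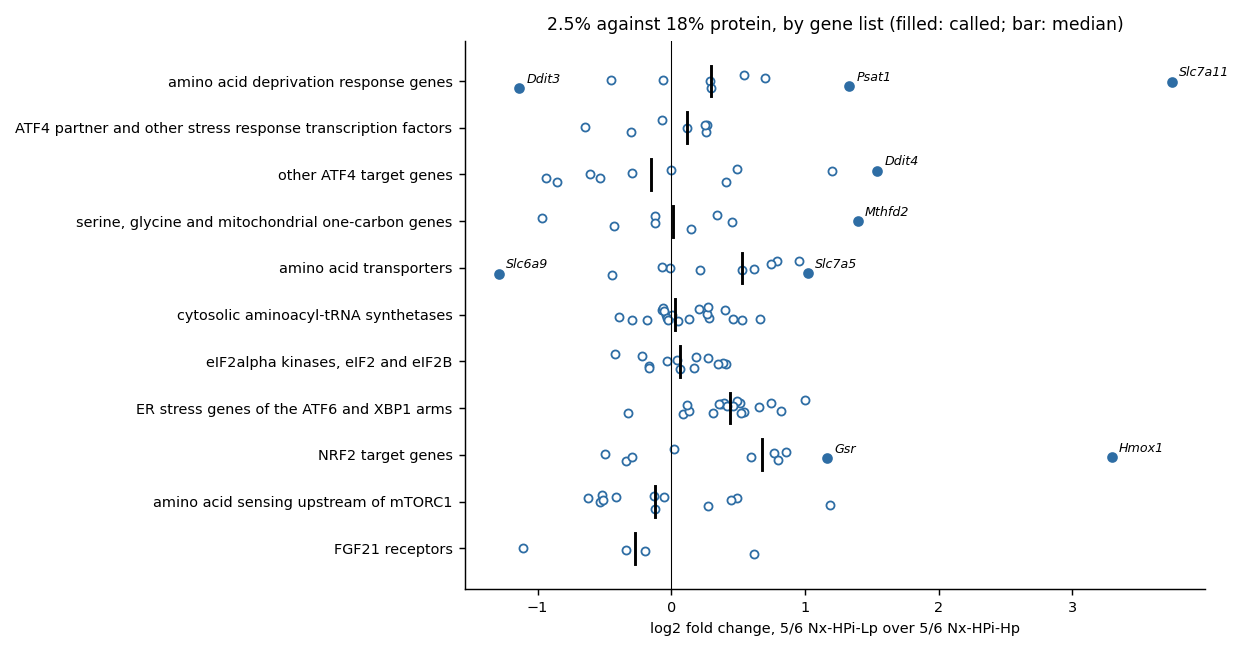
Log2 fold change of each tested gene (x axis, 5/6 Nx-HPi-Lp over 5/6 Nx-HPi-Hp) by gene list, with filled points for called genes and vertical bars for list medians. Called are Psat1, Slc7a11 and Ddit3 of the 10 genes and Ddit4, Mthfd2, Slc7a5, Slc6a9, Hmox1 and Gsr of the lists. The medians of the lists run from -0.27 for the FGF21 receptors to 0.68 for the NRF2 targets.

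The same lists gave other single genes in the phosphorus comparison, named here after their values were seen, beside 7.90% of all genes called higher and 3.98% lower. Of 11 transporters (median 0.70), Slc36a1 (log2 fold change 1.23) and Slc43a1 (1.07) were higher and Slc6a9 lower. Of 8 serine, glycine and one-carbon genes (median -0.13), Mthfd2 was higher (1.39) and Gcat lower (-1.08), and of 10 other ATF4 targets (median 0.22), Ddit4 was higher and Vldlr lower (-1.44). Of 10 NRF2 targets (median -0.001), Hmox1 and Gsr were higher and Me1 (-2.26) and G6pdx (-1.18) lower, and 1 of 18 ER stress genes (median 0.39), Sdf2l1, was higher (1.70). No gene of the other 5 lists was called.

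Against Sham, 4 of 11 transporters were higher and 2 lower (median 0.14), beside 15.0% of all genes called higher and 7.18% lower. Named after their values were seen, they were Slc7a3 (1.77), Slc36a1 (1.61), Slc43a1 (1.26) and Slc1a5 (1.10), and Slc6a9 (-1.64) and Slc38a1 (-1.21). Also named so, Shmt1 (1.91) was higher of 8 serine, glycine and one-carbon genes (median 0.17), Cars (1.00) of 20 synthetases (median 0.17) and Rragd (1.21) of 12 sensing genes (median 0.06). Of 10 other ATF4 targets (median -0.11), Ddit4 was higher and Vldlr (-1.42) and Stc2 (-1.31) lower, and of 10 NRF2 targets (median 0.35), Hmox1 was higher and Nqo1 lower (-1.45). None of 18 ER stress genes (median -0.09), 13 eIF2 genes (median 0.11) or 7 transcription factors (median -0.02) was called. Of the 4 FGF21 receptor genes (median -0.35), Fgfr2 was lower (-1.61) and Klb, which encodes the co-receptor that FGF21 needs, higher (2.68), in a comparison in which 5 of 6 adipocyte markers were higher.

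The genes whose levels ran most like those of Atf4, Asns and Trib3 from mouse to mouse were sought in 13398 genes (mean count 50 or more), after the group means were subtracted from log2(CPM + 1). Over the 16 mice, Pearson's r with Atf4 was 0.97 for Bnip2, 0.95 for Snx18 and 0.95 for Yap1. With Asns it was 0.97 for Ermp1, 0.95 for Mcf2l and 0.94 for Acot2, and with Trib3 it was 0.89 for Syne3, 0.87 for Card10 and 0.87 for Glmn. Among the 10 genes themselves, Asns, Phgdh and Trib3 ran together (r of 0.65 to 0.67), and Atf4 ran against Phgdh (-0.76) and Asns (-0.63). These values describe mice that share library depth and tissue makeup, and no p is attached to them.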

How the data were processed

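RNA-seq of aortas was analysed from 2 deposited tables. The authors aligned reads to mm10 with HISAT2 and made the gene counts with featureCounts 1.5.0-p3, and they deposited raw counts and FPKM values per gene. The deposited FPKM divide each count by gene length and by a size factor of the library, and not by its own total. Columns were matched to samples by name, and every sample had 1. The members and lists were chosen with earlier results of these data known.

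Each pair of groups (8 libraries) was fitted with edgeR 4.0.16 (R 4.3.3) on the counts: filterByExpr, TMM scaling, quasi-likelihood test, Benjamini-Hochberg adjustment over all genes tested. The study's own test, DESeq2 (1.42.0), and limma (3.58.1) on log2(FPKM + 1) or log2(FPKM + 0.1) (mean FPKM over 0.5) were alternatives, as were other filters and scalings, a replicate block and leaving out each library. After seeing the data, a covariate of adipocyte markers, thinning to the lowest total, and leaving out 5/6 Nx-HPi-Lp mice 1 and 4 were added. The edgeR, DESeq2 and limma code was tested on simulated data. All 10 members are named in every comparison, those under the count filter as not tested. From each pathway list, the called gene with the largest fold change in each direction in the protein comparison, and genes called against each of the other groups in 5/6 Nx-HPi-Lp, are named. For likeness, 3 genes are named per anchor. Totals of 13659525 to 57276915 counts set the precision. Fold thresholds are on the log2 scale.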

Additional observations from a re-analysis of the deposited data

Results flagged for a closer look

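Within groups of 4 mice, 60 sets of values (the 10 genes and 5 pathway genes in 4 groups) were examined for a mouse far from the others by Dixon's test at its 95% critical value, and 6 stood out. The rate of about 1 in 20 by chance assumes normal and independent values. Genes with few counts, and several genes read in the same mouse, depart from that, so the 6 are not set against this rate. In the 5/6 Nx-HPi-Hp group, mouse 4 was apart for 3 genes: Atf4 was 188 CPM against 130 to 137 CPM in the others, Sesn2 was 11.2 CPM against 21.0 to 22.3 CPM, and Mthfd2 was 14.5 CPM against 4.25 to 5.77 CPM. That mouse also had the highest smooth muscle markers (23490 CPM) and the lowest adipocyte markers (1087 CPM) of its group, and their part in these values was not tested. Slc7a11 was 0.0 CPM in 5/6 Nx-HPi-Hp mouse 2, with 0 counts, against 0.300 to 0.328 CPM in the others. Phgdh was 13.2 CPM in 5/6 Nx-LPi-Lp mouse 1 against 15.5 to 15.8 CPM. Fgf21 was 0.135 CPM in Sham mouse 3, from 3 counts, with no count in the other Sham mice.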

How the results depend on the processing

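Of the 933 values of single genes under alternatives that kept every library, or left out 2 together, 838 kept their direction and their side of the thresholds, 55 lost a call, 12 gained one and 28 changed sign. The number of the 10 genes called in the protein comparison (3) was 1 with limma on log2(FPKM + 1), 0 with limma on all genes, 0 with the replicate block and 1 without 5/6 Nx-HPi-Lp mice 1 and 4, and 1 to 3 without single libraries. In the phosphorus comparison (2) it was 1 with at least 10 counts in every library and 1 in each limma fit, and 2 to 3 without single libraries. Against Sham (4) it was 2 in each limma fit, 0 with the adipocyte covariate, and 3 to 6 without single libraries. For 5/6 Nx-LPi-Lp against 5/6 Nx-HPi-Hp (0) it was 1 with DESeq2 and 0 without single libraries. For Sham against 5/6 Nx-HPi-Hp (3) it was 5 at the adjusted p alone, 1 with limma on all genes, 0 with the adipocyte covariate, and 2 to 5 without single libraries. For 5/6 Nx-LPi-Lp against Sham (2) it was 5 at the adjusted p alone, 1 with total-count scaling, DESeq2, no count filter, each limma fit or all 16 libraries in one fit, 0 with the adipocyte covariate, and 1 to 2 without single libraries. The promoter core was in 5 genes, and in 3 with TGATGCAA. Slc7a11, under the FPKM minimum, is absent from the filtered limma fits by construction. Elsewhere the cause was not tested.

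In the protein comparison the log2 fold change was 0.006 for Sesn2 with total-count scaling and 0.006 without 5/6 Nx-HPi-Lp mice 1 and 4, where Trib3 was -0.016, and in the phosphorus comparison Trib3 was -0.23 without those mice. Against Sham, Ddit3 was -0.094 with total-count scaling and -0.008 with no count filter, and Slc7a5 was -0.014 with total-count scaling and -0.13 without 5/6 Nx-HPi-Lp mice 1 and 4. With the adipocyte covariate, Chac1 (-0.46), Sesn2 (-0.66), Phgdh (-0.21), Slc7a5 (-0.89) and Ddit4 (-0.58) changed sign against Sham. That fit cannot tell the markers apart from surgery. For 5/6 Nx-LPi-Lp against 5/6 Nx-HPi-Hp, Asns was 0.068, 0.098 and 0.068 in the limma fits and 0.11 with the replicate block, and with the adipocyte covariate Atf4 was 0.029 and Sesn2 -0.056. For Sham against 5/6 Nx-HPi-Hp, the covariate gave -0.21 for Atf4, 0.28 for Trib3 and 0.22 for Phgdh. For 5/6 Nx-LPi-Lp against Sham, Phgdh was 0.009, 0.016 and 0.009 in the limma fits and 0.031 with the replicate block, and the covariate gave 0.25 for Atf4 and -0.11 for Sesn2. Without single libraries the sign changed for Sesn2 (-0.26 to 0.12) in the protein comparison, Trib3 (-0.12 to 0.20) and Sesn2 (-0.241 to 0.091) in the phosphorus comparison, Ddit3 (-0.12 to 0.23) and Slc7a5 (-0.014 to 0.295) against Sham, Atf4 (-0.084 to 0.087), Asns (-0.35 to 0.43), Chac1 (-0.24 to 0.26) and Sesn2 (-0.14 to 0.14) between 5/6 Nx-LPi-Lp and 5/6 Nx-HPi-Hp, and Phgdh (-0.13 to 0.23) for 5/6 Nx-LPi-Lp against Sham.

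Total-count scaling moved the median of all genes to -0.14 against Sham, 0.19 for Sham against 5/6 Nx-HPi-Hp and -0.22 for 5/6 Nx-LPi-Lp against Sham. The replicate numbers are names of mice, and same-numbered mice did not deviate together in every pair (r of -0.33 to -0.01 in the protein comparison). With the number as a block, the adjusted p in the protein comparison was 0.0738 for Psat1, 0.0624 for Ddit3 and 0.137 for Slc7a11, and the genes of the genome called fell from 1315 to 371. Without single libraries, groups of 3 and 4 remain, and Fgf21 and Chac1 rest on few counts, which limits what can be told of them.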
